A study of Homo sapiens with 6 samples.

Results

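Interferon-stimulated genes were followed through a treatment meant to deplete ENL, and its washout, in HCT116 cells, an established human colon cancer line. ENL protein was not measured here. The set was a fixed list of 49 genes, chosen with earlier results of these data known. It was matched by exact symbol to a table of 31628 genes, and all 49 were found (RIG-I under its older symbol DDX58). Shares of members set beside those of all genes therefore describe this list and are no independent result. The cells carry ENL, the product of MLLT1 and a reader of acetylated histones, fused to an auxin-inducible degron, and stably express AtAFB2, a plant F-box protein that directs auxin-bound degrons to a ubiquitin ligase. Control cells carried the same tag and AtAFB2 and received no auxin. IAA cells received the auxin indole-3-acetic acid for 3 h at a dose labelled 500 um, and washout cells were treated alike, then rinsed with PBS and grown without IAA for 48 h. There were 2 libraries in each of the 3 groups. The labels mention drug selection of degron clones without saying how many clones were used. No IAA-treated cells without the degron are analysed here, so an effect of IAA and an effect of ENL loss cannot be told apart. The washout cells also differ from the others by 48 h of culture. The labels do not say whether replicates were separate cultures, so the p-values measure only the spread between these samples, which may be technical.

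Interferons are secreted proteins, most of which cells release after sensing viral nucleic acid. Most bind surface receptors coupled to the kinases JAK1 and TYK2, which activate transcription factors of the STAT family. STAT2 and IRF9 belong to a complex that binds interferon-stimulated response elements (ISREs) in the promoters of interferon-stimulated genes. Gamma-activated sites (GAS) are a further promoter element of the response. The products sense viral RNA, block translation and entry, modify proteins with the ubiquitin-like ISG15 and present antigen. Many are also expressed at a basal level in unstimulated epithelial cells.

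Promoter sequence was available from RefSeq (GRCh38.p14) for 41 of the 49 members, as 250 bases before to 50 bases after the annotated start. No entry was found for IRF7, IFIT2, IFITM2, OAS2, OASL, MX2, USP18 and PARP10. The ISRE was searched as GAAANNGAAA and the GAS as TTCNNNGAA, on both strands. The ISRE letters occurred in 25 of the 41 member promoters, against 3.65% of 27305 promoters in the table. The GAS letters occurred in 10 of 41, against 7.88% of all promoters, and in 4 of those 10 (IFITM1, BST2, IFI27 and EPSTI1) the GAS match overlapped an ISRE match. A match describes the letters only and is no evidence of binding. The stretches below belong to members whose levels are described later. Capitals mark ISRE matches, which appear as the reverse complement where they lie on the other strand.

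IFIT1 (chr10:89392482-89392554, + strand): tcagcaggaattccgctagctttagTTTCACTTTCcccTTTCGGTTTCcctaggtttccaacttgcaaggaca
IFI27 (chr14:94110603-94110675, + strand): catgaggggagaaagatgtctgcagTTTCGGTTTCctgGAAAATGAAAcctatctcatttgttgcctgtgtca
IFITM3 (chr11:320861-320937, - strand): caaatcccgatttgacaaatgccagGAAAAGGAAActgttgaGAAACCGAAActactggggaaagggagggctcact
DTX3L (chr3:122564307-122564366, + strand): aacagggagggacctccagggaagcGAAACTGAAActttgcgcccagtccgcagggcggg
OAS3 (chr12:112938306-112938496, + strand): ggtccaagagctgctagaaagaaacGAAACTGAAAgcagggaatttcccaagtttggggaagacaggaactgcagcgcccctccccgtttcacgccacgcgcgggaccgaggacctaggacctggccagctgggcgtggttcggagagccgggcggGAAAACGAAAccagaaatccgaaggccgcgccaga

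These 5 promoters belong to effectors of the response and hold 1 or 2 ISRE matches each, with those of IFIT1 and IFI27 only 3 bases apart. The promoters of IRF1, STAT2 and IFI35 held no ISRE match, and those of IRF1 and IFI35 held 1 GAS match each. For these 3 genes the 60 bases before the start are shown for comparison.

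IRF1 (chr5:132490774-132490833, - strand): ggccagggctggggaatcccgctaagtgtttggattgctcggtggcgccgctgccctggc
STAT2 (chr12:56360108-56360167, - strand): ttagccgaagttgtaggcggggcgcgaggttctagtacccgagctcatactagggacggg
IFI35 (chr17:43006724-43006783, + strand): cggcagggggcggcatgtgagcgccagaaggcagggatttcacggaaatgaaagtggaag

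The deposited values are FPKM, fragments per 1000 bases of gene and per 1000000 reads. In these files the gene length includes introns, so a long gene has a low FPKM at many reads. Whole reads were recovered from the FPKM for all 49 members, and library totals lay between 16442840 and 16770850 reads. Differences were tested over all genes in 2 ways, with p-values adjusted by Benjamini-Hochberg and a threshold of 0.05. The main test was limma on log2(FPKM + 1) for the 8317 genes whose FPKM averaged 1 or more, called the FPKM test below, and its log2 changes understate those of low genes. The other was limma-voom on the recovered reads of 14775 genes with a mean of at least 10 reads, called the read test below. Of the 49 members, 25 passed the FPKM filter and 43 the read filter. Each of the 43 had a mean of at least 10 reads in every group, while 23 of the 25 had a mean FPKM of at least 1 in every group.

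**Figure D1:**
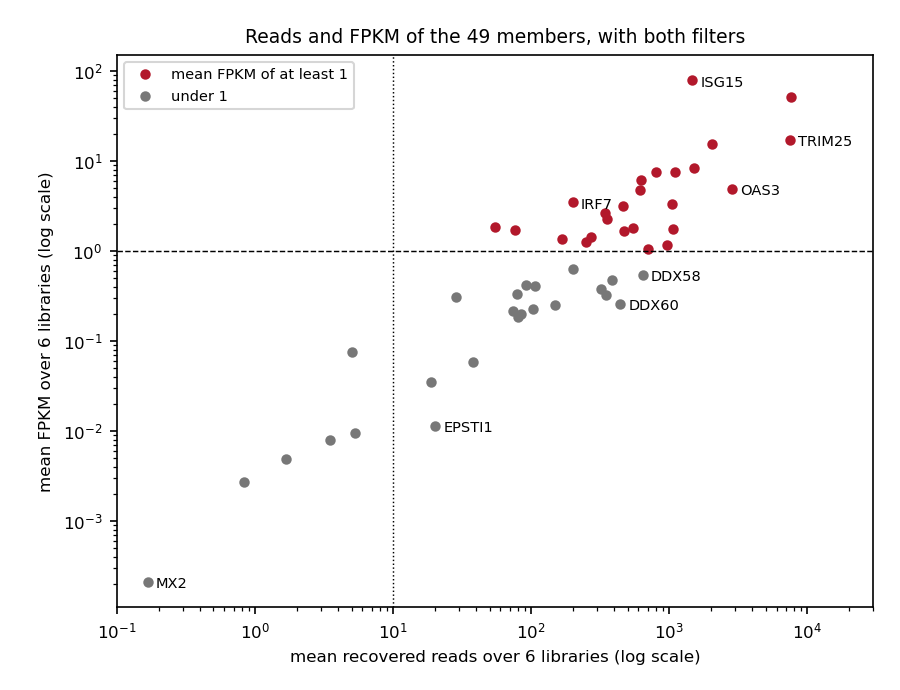
Mean FPKM (y axis, log scale) against mean recovered reads (x axis, log scale) over the 6 libraries for the 49 interferon-stimulated genes. The dashed line is an FPKM of 1 and the dotted line 10 reads; the 18 members to the right of the dotted line and below the dashed line, such as DDX58 and DDX60, could be tested only on reads.

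No interferon ligand gene reached a mean of 10 reads: 4 of 9 ligand genes (IFNA1, IFNA2, IFNB1 and IFNG) had 0 reads in every library, and IFNL1, the highest, had a mean of 1.83 reads. In reads per 1000000 and per 1000 bases of exon, the levels of the 43 members ran from 128 for LGALS3BP, a secreted glycoprotein, 93.9 for ISG15 and 91.5 for IFITM3 down to 0.234 for RSAD2. MX1, a classical marker of interferon exposure, had a level of 0.265 on this scale. Below the read filter were 6 members, XAF1, IFI44L, SAMD9L, MX2, PSMB8 and OAS2, each with at most 11 reads in any library. OAS2 had 2 and 1 reads (control), 10 and 7 (IAA), 7 and 5 (washout).

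MLLT1 RNA does not check the treatment, because the degron acts on the protein. Its recovered reads were 459 and 480 (control), 445 and 402 (IAA), 463 and 428 (washout), and the read test gave an adjusted p of 0.33 for IAA against control. Of 10 colon epithelium markers, 9 had a mean FPKM of at least 1. None of the fibroblast (7), endothelial (4 measured) or blood (8) markers did, with PDGFRA and CD3E at 0 reads in every library. On reads, 1 fibroblast marker, COL1A1 (mean 196), and 1 endothelial marker, VWF (mean 15.5), reached 10, and no blood marker did. The summed FPKM of the fibroblast list was 0.523 to 0.545 in control, 0.618 to 0.773 with IAA and 0.727 to 0.756 after washout. The read test called neither COL1A1 nor VWF in any comparison. The summed FPKM of the epithelial markers moved with the treatment, from 349 to 359 in control to 280 to 284 with IAA and 338 to 354 after washout. By the FPKM test KRT8, KRT18, KRT19 and CLDN3 fell with IAA and rose after washout, while by the read test VIL1 and CDX2 rose and then fell. Of 6 RNAs read for RNA quality and general state, the read test called ACTB, NEAT1 and MALAT1 lower with IAA, then ACTB and NEAT1 higher and TBP lower after washout, and the FPKM test called none of 5. The part of these shifts in the changes below was not tested. In bulk RNA, fewer cells of a type and less RNA per cell cannot be told apart.

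With 3 h of IAA the shares of members that rose and fell in the read test were near those of all genes. The transcription factors IRF1, STAT2 and IRF7 were among those that rose, and effectors of the IFIT and PARP families among those that fell. By the FPKM test 3 of 25 members rose and none fell, while 6.64% of all 8317 genes rose and 6.49% fell. The read test gave 5 of 43 members higher and 5 lower, against 14.3% and 10.4% of 14775 genes. The members' median log2 change by the read test was -0.06, with 19 of 43 above 0, and the median of all genes was 0.04. Without the first control library the members' median was 0.02 with 24 above 0, and without the second it was -0.14 with 13 above 0. By separation of the groups, 8 of 43 members had both IAA libraries above both controls (35.0% of all genes) and 14 had both below (24.6%).

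IRF1 is an interferon-induced transcription factor that drives antiviral and antigen presentation genes. Its FPKM was 1.83 and 1.78 (control), 3.10 and 2.83 (IAA), 2.19 and 2.08 (washout). The 3 groups did not overlap, with IAA highest and washout between the others. IRF1 rose with IAA by 0.50 ± 0.05 (SE) on the log2 scale in the FPKM test (adjusted p = 0.0107), and mean FPKM was 1.65-fold that of control. Of the 7799 exon bases of IRF1, 1716 are shared with C5orf56 and 469 with AC116366.3, both on the opposite strand in GENCODE 29. The sources used here do not give the strand read, so reads from the shared bases cannot be told apart.

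STAT2 carries the transactivation domain of the ISRE-binding complex. Its FPKM was 2.81 and 2.97 (control), 3.94 and 3.97 (IAA), 3.34 and 3.26 (washout). This was the same order of groups as for IRF1, again without overlap. The rise with IAA was 0.35 ± 0.04 by the FPKM test (adjusted p = 0.0127), and 0.45 ± 0.07 by the read test (adjusted p = 8.33e-07).

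IRF7 amplifies interferon production after viral sensing. Its FPKM was 2.67 and 2.63 (control), 3.63 and 3.996 (IAA), 4.32 and 3.66 (washout). Unlike IRF1 and STAT2 it was still at the IAA level in the washout libraries, which overlapped the IAA libraries. It rose with IAA by 0.40 ± 0.08 in the FPKM test (adjusted p = 0.0387), and its washout minus IAA difference was 0.05 ± 0.08 (adjusted p = 0.699). The call of the FPKM test was lost on values rescaled to TPM, with no filter on level, with a filter and pseudocount of 0.05, and with the replicate number as a block (adjusted p up to 0.0968), while the read test called the rise (adjusted p = 0.01). The read-test call of IRF7 was lost when either control library or the second IAA library was left out. IRF9, the DNA-binding partner of STAT2, had 42 and 21 reads (control), 25 and 31 (IAA), 31 and 21 (washout). The widest spread fell within the control group. Exons of IRF9 share 1838 bases with the protein-coding gene AL136295.5 on the same strand. Strand cannot separate reads from these bases, so the reads given are an uncertain measure of the IRF9 level.

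The 5 members called lower with IAA in the read test, a share near that of all genes, were IFIT, PARP and DTX3L effectors. The sensors DDX60 and IFIH1 also had both IAA libraries below both controls, without a call. IFIT1, which binds viral RNA lacking the host cap methylation and blocks its translation, had an FPKM of 1.74 and 1.32 (control), 0.882 and 0.912 (IAA), 1.74 and 1.98 (washout). Both IAA libraries lay below all 4 others. The IAA mean was 0.585-fold that of control, a difference of -0.41 ± 0.09 that missed the threshold of the FPKM test (adjusted p = 0.0521) and passed that of the read test at -0.76 ± 0.15 (adjusted p = 7.77e-05). The FPKM test on values rescaled to TPM also called IFIT1 lower, which makes 2 members higher and 1 lower under that scaling. With a pseudocount of 0.1 or of 0.5 in place of 1 it called IFIT1 lower too, with 3 members higher in each case. By the read test IFIT5, PARP9, PARP14 and DTX3L also fell, by 0.27, 0.36, 0.23 and 0.19 on the log2 scale, and ISG15 and TRIM21 rose by 0.19 and 0.33. These 6, and the other members named from the read test alone while above the FPKM filter, were picked out after their values were seen. Scaling the reads by the median of ratios gave 4 members higher and 7 lower with IAA, and moved all genes the same way, to 1646 higher and 1963 lower from 2117 and 1534. No family fell in full: of the 4 IFIT genes 2 fell by the read test, and of the 5 PARP and DTX3L genes 3 fell.

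The FPKM test called 0 members with IAA when either control or either IAA library was left out, and the read test called between 5 and 8. The lone library is then assumed to vary like the other groups. Of the members that the read test called with all libraries, only IRF1, STAT2 and IFIT1 kept their calls under each of these omissions. DTX3L and PARP14 lost theirs without the first control library or without the second IAA library. PARP9 lost its call without the second IAA library, and IFIT5 without the first control or the first IAA library.

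**Figure D2:**
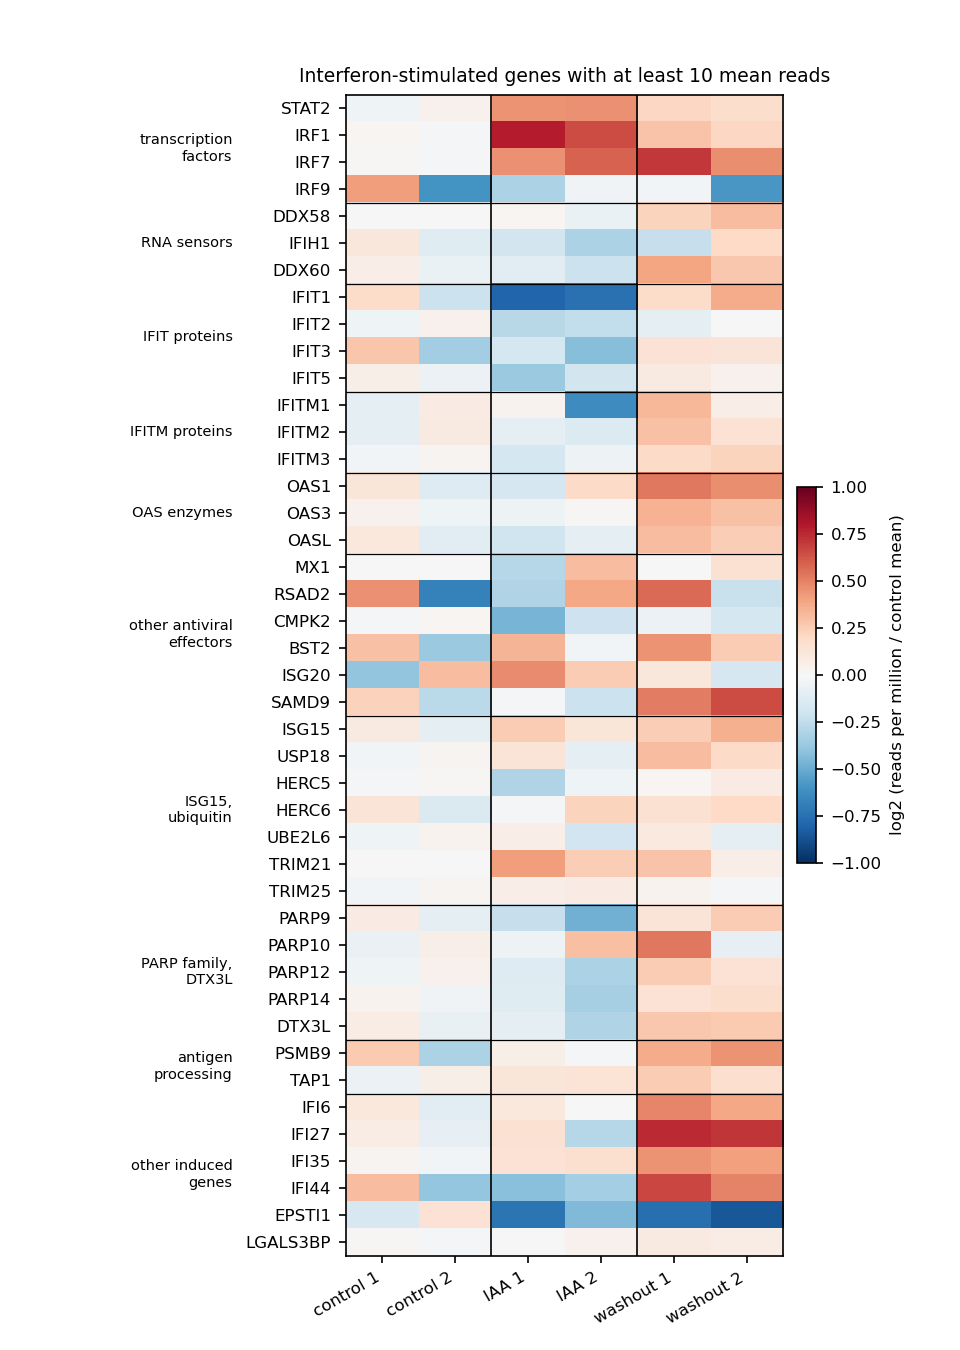
log2 of the depth-scaled reads over the control mean for the 43 members with a mean of at least 10 reads, in each of the 6 libraries, grouped by role; red is above and blue below the control mean, and colours stop at 1 either way. STAT2, IRF1 and IRF7 are red in both IAA libraries, IFIT1 is blue in both, and most rows are red in both washout libraries.

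After washout several effectors were higher than with IAA, and IRF1 and STAT2 were lower. In the FPKM test 7 of 25 members rose (28.0%), against 7.73% of all genes, and 2 fell (8.0%), against 6.65%. The risen members were IFIT1, OAS3, IFI35, IFI27, IFITM3, DTX3L and PARP9, and the fallen ones IRF1 and STAT2. In the read test 16 of 43 members rose (37.2%), against 11.9% of all genes, and the same 2 factors fell (4.65%), against 14.2%. The median change of the 43 was 0.23, with 36 above 0, while the median of all genes was -0.02. Both washout libraries lay above both IAA libraries for 27 of 43 members (27.5% of all genes), and below for 5 (32.7%). Washout against IAA and IAA against control share the IAA libraries, so their values are given side by side and not as independent results.

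IRF1 fell after washout by 0.34 ± 0.05 on the log2 scale in the FPKM test (adjusted p = 0.0203), and STAT2 fell by 0.20 ± 0.04 (adjusted p = 0.0329). Both kept a mean above that of control, at 1.18-fold and 1.14-fold, a difference that did not pass either test.

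Among the IFIT genes, IFIT1 rose 2.07-fold over its IAA level. The log2 change was 0.59 ± 0.09 in the FPKM test (adjusted p = 0.0244) and 1.05 ± 0.14 in the read test (adjusted p = 6.04e-08), the largest of the 43 members in that comparison. IFIT5 rose by 0.34 ± 0.08 in the read test (adjusted p = 0.000804) and missed the threshold of the FPKM test at 0.30 ± 0.07 (adjusted p = 0.0545). IFIT2 and IFIT3 had positive differences of 0.21 ± 0.16 and 0.44 ± 0.23 that did not pass the read test.

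Among the OAS enzymes, which make the second messenger that activates RNase L, OAS3 was the only member above the FPKM filter. Its FPKM was 4.71 and 4.43 (control), 4.42 and 4.61 (IAA), 5.82 and 5.59 (washout). Control and IAA overlapped, and both washout libraries lay above all 4 others. OAS3 rose over IAA by 0.28 ± 0.04 in the FPKM test (adjusted p = 0.0254), a ratio of means of 1.26. OASL, an OAS-like protein without the synthetase activity, had 207 and 179 reads (control), 166 and 182 (IAA), 240 and 229 (washout). It rose by 0.42 ± 0.15 in the read test (adjusted p = 0.0281), a call lost when any 1 of the 4 IAA and washout libraries was left out (adjusted p up to 0.164). OAS1 had a similar difference of 0.48 ± 0.22 at 65 to 107 reads and did not pass (adjusted p = 0.11).

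The IFITM proteins hinder the fusion of viruses with cell membranes. IFITM3 had an FPKM of 14.9 and 15.6 (control), 13.5 and 14.8 (IAA), 17.4 and 17.8 (washout). The IAA libraries were the lowest and the washout libraries the highest, without overlap. It rose over IAA by 0.30 ± 0.05 in the FPKM test (adjusted p = 0.0334). IFITM2 rose by 0.33 ± 0.09 in the read test (adjusted p = 0.00336), and IFITM1, at 36 to 70 reads, differed by 0.50 ± 0.29 (adjusted p = 0.214). IFITM1, IFITM2 and IFITM3 are near-identical copies, so reads may be split among them and their separate values are uncertain.

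PARP9 is a macrodomain protein that works with the ubiquitin ligase DTX3L, and the genes lie head to head. PARP9 had an FPKM of 1.91 and 1.69 (control), 1.53 and 1.29 (IAA), 1.97 and 2.14 (washout). DTX3L had 8.50 and 7.66 (control), 7.60 and 6.56 (IAA), 9.76 and 9.68 (washout). In both genes the IAA libraries were the lowest and the washout libraries the highest. PARP9 rose over IAA by 0.35 ± 0.07 (adjusted p = 0.0425) and DTX3L by 0.41 ± 0.08 (adjusted p = 0.0386) in the FPKM test. Their exons share 217 bases on opposite strands, so part of their reads cannot be told apart. PARP14 and PARP12, relatives with ADP-ribosyl transferase activity, rose by 0.39 ± 0.07 and 0.42 ± 0.09 in the read test, while PARP10 did not pass (0.10 ± 0.18).

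The RNA sensors are long genes that only the read test reached. DDX58 encodes RIG-I, which recognises viral RNA ends; it had 603 and 613 reads (control), 607 and 585 (IAA), 709 and 750 (washout). Its rise over IAA was 0.28 ± 0.08 (adjusted p = 0.00852), lost without the second IAA library or without the second washout library (adjusted p up to 0.0969). DDX60, a helicase reported to assist RIG-I, had 437 and 402 reads (control), 384 and 363 (IAA), 552 and 504 (washout), and rose by 0.49 ± 0.10 (adjusted p = 0.000156). In both genes the washout libraries were above the 4 others. IFIH1, which encodes the sensor MDA5, had 368 and 317 reads (control), 297 and 276 (IAA), 292 and 392 (washout), and its difference of 0.23 ± 0.13 did not pass (adjusted p = 0.186).

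The other induced genes included 2 with large ratios, IFI27 and IFI44. IFI27, a mitochondrial protein induced by type I interferon, had an FPKM of 1.11 and 0.992 (control), 1.16 and 0.86 (IAA), 1.76 and 1.72 (washout). Control and IAA overlapped and washout stood above both. The rise over IAA was 0.45 ± 0.08 in the FPKM test (adjusted p = 0.0329), with a ratio of means of 1.72. IFI44 had 90 and 56 reads (control), 54 and 58 (IAA), 116 and 103 (washout), and rose over IAA by 0.95 ± 0.25 in the read test (adjusted p = 0.0023). IFI35 had an FPKM of 2.34 and 2.25 (control), 2.54 and 2.57 (IAA), 3.13 and 3.05 (washout). It stepped up in each group without overlap. It rose over IAA by 0.20 ± 0.03 in the FPKM test (adjusted p = 0.0271) and missed the threshold of the read test (adjusted p = 0.06). SAMD9, an antiviral factor that restricts poxviruses, and IFI6 rose only by the read test, by 0.70 ± 0.10 and 0.38 ± 0.09.

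**Figure D3:**
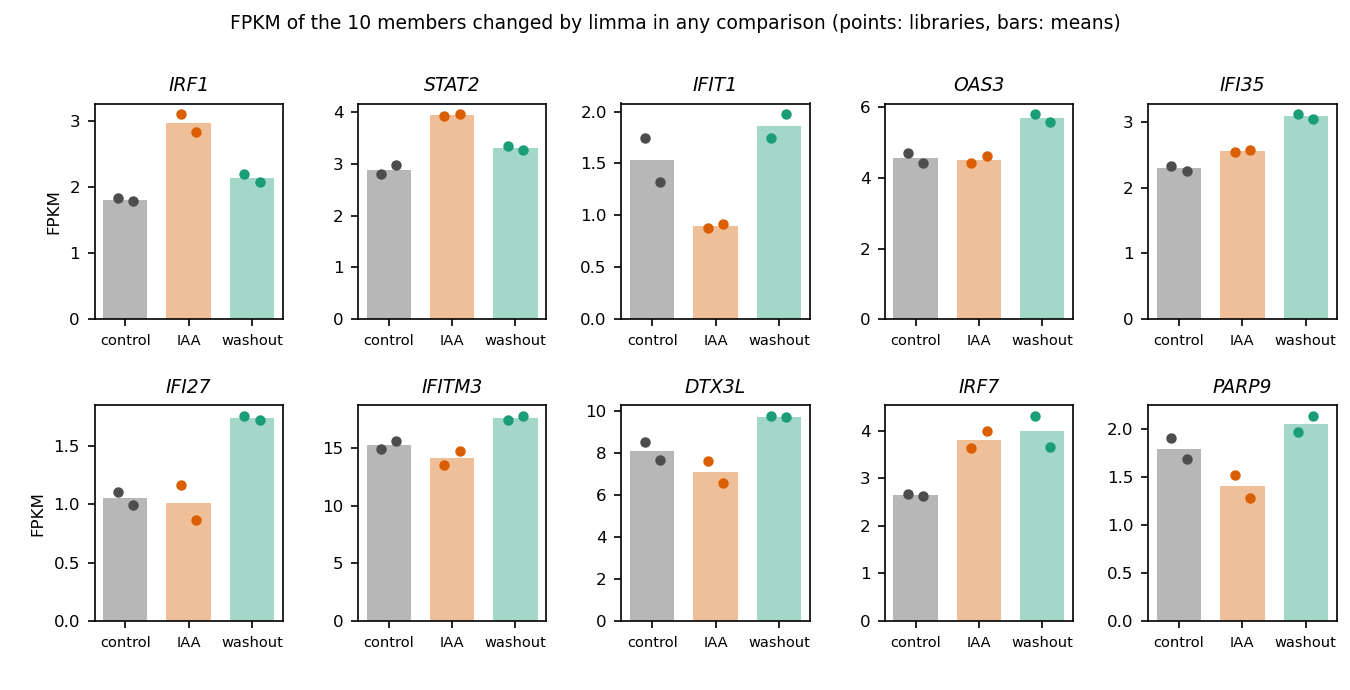
FPKM (y axis, from 0) in control, IAA and washout for the 10 members with an adjusted p under 0.05 in the FPKM test in any comparison; points are the 2 libraries and bars their mean. IRF1 and STAT2 are highest with IAA; IFIT1, PARP9, DTX3L and IFITM3 are lowest with IAA; OAS3 and IFI27 stand apart only after washout.

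The genes of ISG15 conjugation gave no call between washout and IAA. ISG15 is attached to proteins by the conjugating enzyme UBE2L6 and the ligase HERC5 and removed by USP18. Of the 7 genes of this group, which also holds HERC6, TRIM21 and TRIM25, none passed either test between washout and IAA. UBE2L6 had a read-test difference of 0.06 ± 0.10, TRIM25 of -0.06 ± 0.04 at 7161 to 7810 reads, and ISG15 of 0.11 ± 0.06. The 2 tested antigen processing genes, TAP1 and PSMB9, did not pass either, at 0.08 ± 0.07 and 0.39 ± 0.20. LGALS3BP, at 7367 to 7948 reads a library, differed by 0.06 ± 0.04. MX1, RSAD2, CMPK2, BST2 and ISG20, which block viral replication or release, did not pass at 11 to 93 reads a library, where standard errors were 0.24 to 0.45. EPSTI1 had 15 to 30 reads and was not called in any comparison.

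Of the 16 members that rose in the read test, 14 had a promoter sequence and 12 of these held an ISRE match. The exceptions in these windows were DDX58 and PARP9, the latter head to head with DTX3L, whose window held 1 match. Among the 27 tested members that did not rise, 23 had a sequence and 12 held a match. The 2 that fell, IRF1 and STAT2, had none in these windows. These counts describe groups formed from the test and were not themselves tested.

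Calls in the FPKM test depended on every library. With any 1 IAA or washout library left out it called 0 members, and with either control left out or with only the 2 groups in the fit it called IFIT1 alone. The read test called 16 to 18 members under each of the 6 omissions.

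**Figure D4:**
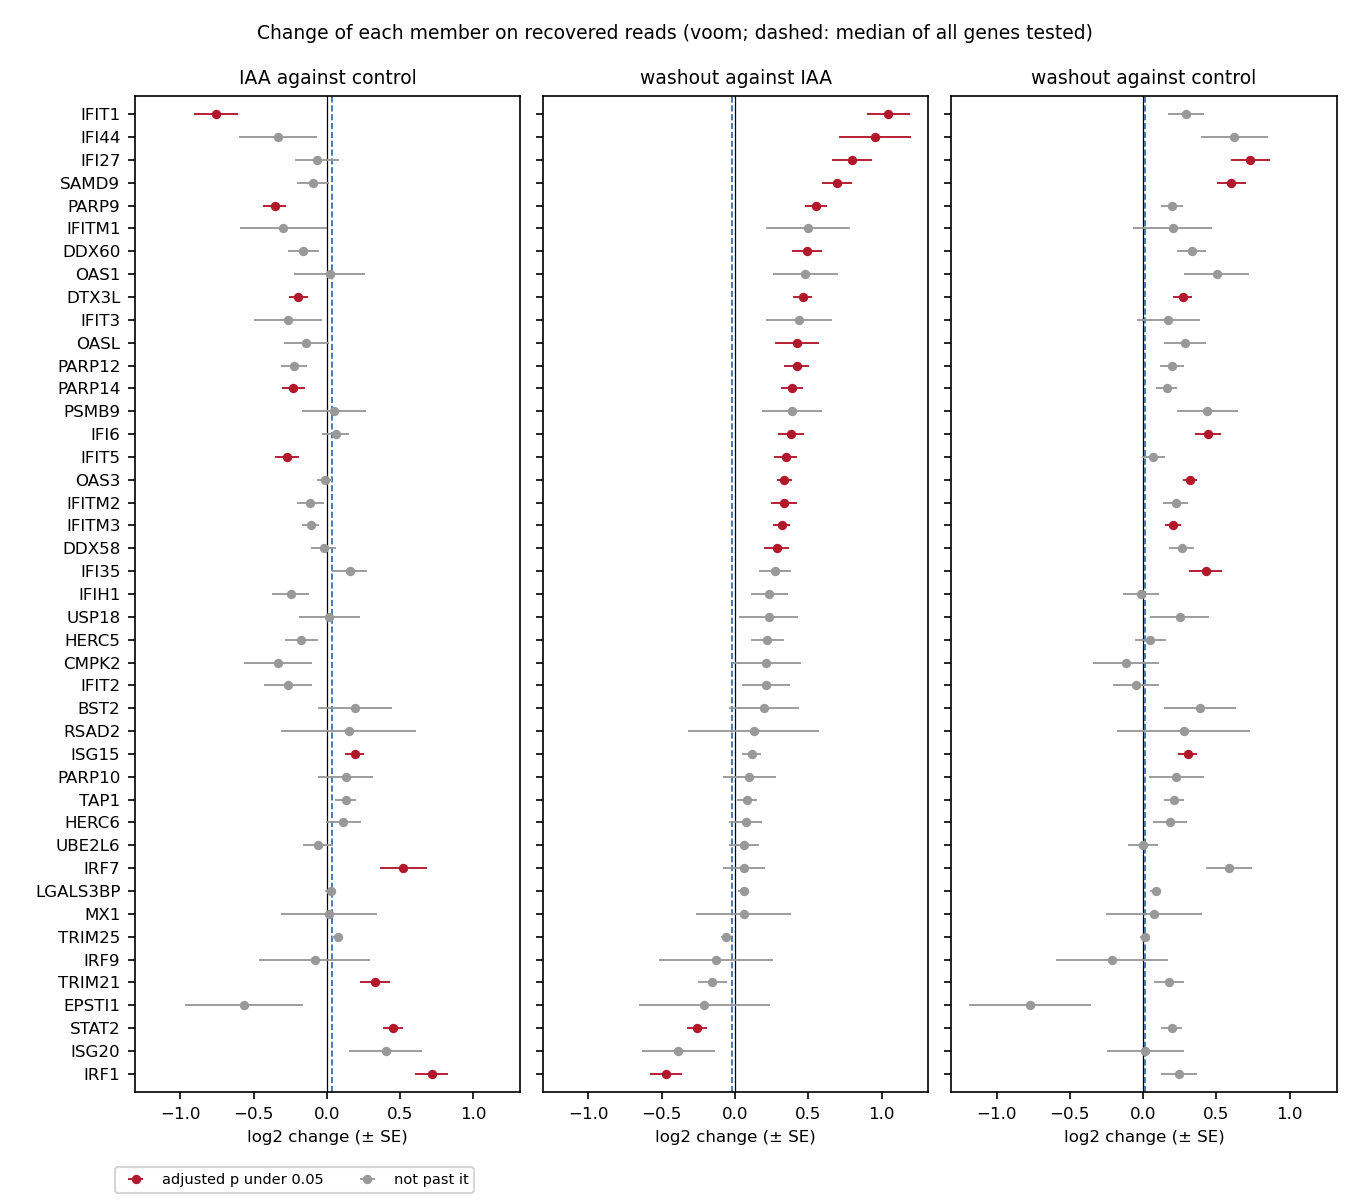
log2 change ± SE of the 43 members in the read test for IAA against control, washout against IAA and washout against control, ordered by the middle panel; red points have an adjusted p under 0.05 and the dashed line is the median of all genes. In the middle panel 36 of 43 members lie above 0, and IRF1 and STAT2 lie below it with adjusted p under the threshold.

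Against untreated control, the washout libraries had higher mean values for 38 of the 43 members tested on reads. The FPKM test called no member and no gene in either direction (0% of 8317), although 12 of 25 members and 750 of all genes had an unadjusted p under 0.05, and all 12 members were higher. The read test called 8 of 43 members higher (18.6%), against 0.386% of all genes (57 of 14775), and none lower, against 0.433%. These were IFI27 (0.73 ± 0.13, adjusted p = 0.00115), SAMD9 (0.60 ± 0.10, adjusted p = 0.000228), IFI6 (0.44 ± 0.09), IFI35 (0.43 ± 0.11), OAS3 (0.32 ± 0.05, adjusted p = 4.25e-05), ISG15 (0.30 ± 0.07), DTX3L (0.27 ± 0.06) and IFITM3 (0.21 ± 0.05). The median of the 43 was 0.21, and that of all genes 0.01. Both washout libraries exceeded both controls for 27 of 43 members (23.7% of all genes), and the reverse held for CMPK2 and EPSTI1 (17.3%).

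SAMD9 shows the spread behind these calls. Its reads were 564 and 403 (control), 471 and 419 (IAA), 691 and 757 (washout). The controls differed from each other by more than the IAA libraries did, and both lay below washout. Without the second control library only OAS3 of the 8 was called, and without the first control 5 were. Leaving out either washout library left 4 of the 8, and a filter of 1 read in place of 10 left 5. The members' median stayed between 0.19 and 0.26 under each of the 6 omissions. IFIT1, the member with the largest return over IAA, differed from control by 0.29 ± 0.12 (adjusted p = 0.335), and IRF7 by 0.58 ± 0.16 (adjusted p = 0.0514).

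**Figure D5:**
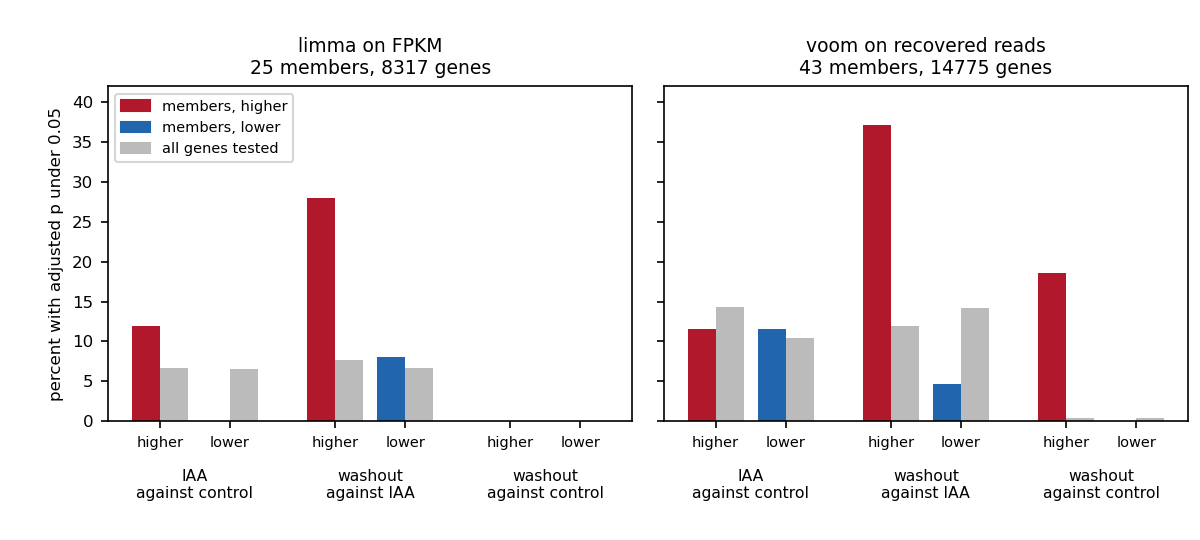
Percent of members (red higher, blue lower) and of all genes tested (grey) with an adjusted p under 0.05 in each comparison, for the FPKM test (left) and the read test (right). In the read test 37.2% of members rose from IAA to washout against 11.9% of genes, and 18.6% were higher than control after washout against 0.386%.

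The rest of the pathway was read from fixed lists, also chosen with earlier results known, whose counts stand beside the shares of all genes called. These were 14.3% higher and 10.4% lower with IAA in the read test, and 11.9% and 14.2% after washout. In the FPKM test they were 6.64% and 6.49% with IAA, and 7.73% and 6.65% after washout. Of 6 interferon receptor genes, 3 passed the FPKM filter and 1 of these changed: IFNGR2, a chain of the interferon gamma receptor, rose from IAA to washout by 0.18 ± 0.04 (adjusted p = 0.0467). In the read test IFNLR1, the lambda receptor chain, rose with IAA by 0.90 ± 0.15 (282 and 255 reads, against 142 and 146 in control) and fell after washout by 0.75 ± 0.15. Of 7 JAK and STAT genes, none of the 4 tested on FPKM changed. The highest on FPKM were TYK2 and STAT3, with means of 2.00 and 1.86 over the 6 libraries. TYK2 rose with IAA in the read test by 0.22 ± 0.07.

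Upstream sensing genes gave 0 of 7 calls in the FPKM test. In the read test, 12 of 14 were tested; EIF2AK2, the RNA-activated kinase PKR, and the adaptors TRAF3 and TANK fell with IAA, and these 3 and MAVS rose after washout. TANK had the largest of these changes, at -0.45 ± 0.06 and 0.46 ± 0.06. IRF3, the factor that induces interferon beta, moved the other way, at 0.29 ± 0.07 with IAA and -0.26 ± 0.07 after washout. Of 11 negative regulators, 6 were tested on FPKM and PTPN6, the phosphatase SHP-1, rose with IAA by 0.30 ± 0.04 and fell after washout by 0.24 ± 0.04. SOCS1, which inhibits JAK kinases, had 15 and 32 reads (control), 47 and 61 (IAA), 14 and 30 (washout), and its rise and fall passed the read test at 1.27 ± 0.37 and -1.37 ± 0.37.

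A further list of 39 interferon-stimulated genes outside the 49 held 13 on FPKM. With IAA 3 of these rose, TRIM38 (0.32 ± 0.04), TRIM26 (0.28 ± 0.04) and HELZ2 (0.26 ± 0.05), and none fell. After washout 1 rose, MOV10, and 3 fell, TRIM38, HELZ2 and TRIM26. In the read test 5 of 31 rose with IAA and 4 fell (TRIM14, PNPT1, RNF213 and DDX60L). From IAA to washout 9 rose and 3 fell, and the median change of the 31 was 0.10 beside -0.02 for all genes. Against control 1 of 31 was higher after washout, ADAR at 0.14 ± 0.03, and none was lower. Of 12 antigen presentation genes found in the table, 7 were tested on FPKM and CALR, the chaperone calreticulin, fell after washout by 0.20 ± 0.04. In the read test 4 of the 12 rose with IAA (PSME2, B2M, CALR and TAPBP) and 0 fell. From IAA to washout 0 rose and 2 fell (PSME2 and CALR). The median change of the 12 from IAA to washout was -0.06, beside -0.02 for all genes. List genes named from the read test alone were chosen after their values were seen.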

How the data were processed

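Poly(A)-selected RNA from 6 libraries of HCT116 ENL-AID cells was sequenced. Per the submitters' processing notes, HISAT, Bowtie2, HTSeq and edgeR were used with hg19. The sources used here give no versions, roles, gene annotation or strand. The authors deposited 1 FPKM value per gene and library. GENCODE 29 spans, introns included, gave whole reads (within 0.001) for 76.1% of 21122 genes, and exon lengths for 17.7%. A length giving whole reads in every library was found for 99.98% of the 21707 genes above 0, at the GENCODE span for 40 members and another length for 9. Recovered reads summed to 99.94% of each library total.

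The limma package (3.58.1, under R 4.3.3) fitted all 3 groups in 1 model, to log2(FPKM + 1) with a variance trend and, by voom, to recovered reads. The variances of the read fit drew on 3 residual and 51.5 prior degrees of freedom, the prior being the spread shared over all genes. The FPKM fit had 1.81 prior degrees of freedom beside the same 3. Read-test p-values therefore rest mostly on spread pooled over genes, and less on each gene's own replicates. Both fits were tested on simulated data. The members and lists were chosen with earlier results of these data known, and some list genes are not reported here. Values in full are given for members called by limma on FPKM or, under the FPKM filter, by voom, and at most 4 genes a list called by limma (otherwise the 2 highest). Promoters are shown for the 8 members with the smallest adjusted p by limma. Alternatives covered pseudocount, filter, scaling, variance trend, groups in the fit, replicate block and leaving out each library.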

Additional observations from a re-analysis of the deposited data

How the results depend on the processing

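None of the called member changes counted here reversed its direction under any alternative. Changes that were not called could change sign: from IAA to washout IRF7 ran from -0.05 to 0.15 and UBE2L6 from -0.04 to 0.12 by limma, and PARP10 from -0.21 to 0.40 by voom. Of 12 member changes called by limma on FPKM, 2 kept their call in all alternatives that used all libraries, and 0 in all that left 1 out. Of the 4 called by voom below the FPKM filter, 4 and 2 did. The cause of the losses below was not tested, beyond the fewer libraries or more genes tested that each setting has.

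For IAA against control, limma called 3 members and 1092 genes, and voom 10 and 3651. With only the 2 groups in the fit limma called 536 genes. Leaving out 1 library gave 0 to 3 members and 50 to 534 genes by limma, and 5 to 11 members and 2326 to 3812 genes by voom. For washout against IAA, limma called 9 members and 1196 genes, and voom 18 and 3861. Limma called 2 members with no filter, 5 with a filter and pseudocount of 0.05, and 1 member and 413 genes with only the 2 groups. Leaving out 1 library gave 0 to 1 members and 46 to 421 genes. For washout against control, limma called 0 members and 0 genes, rising to 48 genes with no filter and 33 with a filter and pseudocount of 0.05. Voom called 8 members and 121 genes, 5 and 66 with a filter of 1 read, 187 genes with only the 2 groups, and 1 to 9 members and 26 to 187 genes without 1 library.

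With the replicate number as a block (replicate block), limma called 2, 5 and 0 members and 486, 532 and 0 genes in the 3 comparisons, and voom 10, 18 and 7 members. The labels do not say that the numbers pair samples, and replicate differences correlated at 0.04, -0.03 and 0.01 between groups, across genes. Scaling moved the median of all genes to at most 0.039 on the log2 scale.

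Depth limits MX1, RSAD2, EPSTI1 and IRF9 most, and the 6 members under 10 reads were not in the read test. For IRF9 the exon bases shared with AL136295.5 are a further limit. A difference well above its standard error could still go uncalled. From IAA to washout OAS1, at 0.48 ± 0.22, did not pass the read test (adjusted p = 0.11).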
